A study of Bos taurus with 8 samples.

Results

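Germ cell genes are switched on as cells of the early embryo are set aside to form sperm and eggs, and most of them are kept silent in other cells. The genes described here were 10 named germ cell genes, taken as a list of names: PRDM1, DAZL, DDX4, NANOS3, DND1, SYCP3, MAEL, DPPA3, STK31 and TDRD1. They were 10 of the 32640 genes in the count table, and 7 of the 10 passed the filter on low counts. RNA was measured in bovine embryonic stem cells (bESCs), which are grown from early cattle embryos and can form the tissues of the body. Lines A, C, D and E, all of XX genotype, were each sequenced in both conditions, which gave 8 libraries. The 4 MEF libraries came from cells at passage 15 to 17 on a feeder layer of mouse embryonic fibroblasts that had been irradiated to stop their division. The 4 feeder-free libraries came from the same lines at passage 20 to 22 on vitronectin, a protein coating to which the cells attach. All 8 cultures were held at 5% oxygen in NBFR medium, a medium with the growth factor FGF2 and the Wnt inhibitor IWR-1. Per the study's methods, Activin A was added for feeder-free culture, while the library names carry the same medium code in both conditions. The substrate, the passage and any added factor therefore changed together and cannot be told apart. The study's methods mention sequencing batches without a batch correction, and no batch was used in the fits here.

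Germ cell development runs through stages that these genes mark. PRDM1 is a transcriptional repressor that helps to specify primordial germ cells, the embryonic precursors of sperm and eggs, and DPPA3 protects DNA methylation in the early embryo. NANOS3, DND1, DAZL and DDX4 bind RNA and act in germ cells after specification. MAEL, TDRD1 and STK31 belong to the machinery of piRNAs, small RNAs that silence transposons in germ cells, and SYCP3 forms part of the protein axis along which chromosomes pair in meiosis.

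Total counts were 44268717, 54296425, 47836940 and 45206672 in the MEF libraries of lines A, C, D and E. In the feeder-free libraries they were 49671478, 51320214, 102351560 and 51068232 in the same order, so the feeder-free library of line D was the deepest. The MEF library of line E stood apart for meiosis genes, and the calls of meiosis genes between lines are given with and without it. Levels are given below as CPM, counts scaled to the size of the library with TMM factors, and they are not corrected for gene length, so an order of genes by CPM or a sum over genes also reflects gene length. The label of embryonic stem cell was checked against the core genes of pluripotency. POU5F1, which pluripotent cells need, lay at 2048 ± 245 CPM on MEF and 1850 ± 84.6 CPM in feeder-free culture (SD, n = 4 each), and NANOG lay between 195 and 284 CPM across all 8 libraries. LIN28A lay at 704 ± 62.2 and 575 ± 43.5 CPM (SD, n = 4 each), and of the 7 core genes tested 0 were called without pairing, with 6 at an unadjusted p under 0.05 (5 lower and 1 higher, beside 21.6% of all tested genes) and a median log2 fold change of -0.30. CRIPTO, a co-receptor of the Nodal signal, rose with the lines paired (log2 fold change 2.42, edgeR adjusted p = 0.00209). Counts from bulk RNA cannot tell fewer cells of a type from less RNA per cell.

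PRDM1 was the member with the clearest difference between the conditions. The gene (chr9:43843910-43866380, ARS-UCD2.0) had 8.09, 8.48, 9.99 and 16.3 CPM on MEF and 3.77, 3.33, 6.73 and 5.35 CPM in feeder-free culture, in lines A, C, D and E. All 4 feeder-free libraries lay below all 4 MEF libraries, and within a line the feeder-free level was lower by 0.57 (line D) to 1.60 (line E) on the log2 scale. Of all tested genes, 8.36% had every feeder-free library below every MEF library. The means were 10.7 ± 3.81 and 4.80 ± 1.55 CPM (SD, n = 4 each), and the log2 fold change of feeder-free against MEF was -1.16 (SE 0.31).

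The test of PRDM1 gave a different call with and without the line as a term. In the fit without it, the adjusted p was 0.0759 by edgeR's quasi-likelihood test and the gene was not called, where a call needed at least a 1.5-fold change together with an adjusted p under 0.05. With the lines paired, the log2 fold change was -1.15 (SE 0.21) with an edgeR adjusted p of 0.00779, and PRDM1 fell. It was called in each paired fit with 1 line left out, with log2 fold changes from -1.35 without line D to -0.99 without line E and edgeR adjusted p of 0.00876 to 0.0417. The endoderm marker FOXA2 was also lower in feeder-free culture in 4 of 4 lines, with 5.79, 3.32, 6.44 and 14.0 CPM on MEF and 3.13, 2.90, 4.71 and 4.73 CPM without feeders (edgeR adjusted p = 0.232). PRDM1 is also used by endoderm and other cells. Of the 11 endoderm markers, 4 passed the filter, 2 with a positive and 2 with a negative log2 fold change and 0 called. FOXA2 and HNF4A had the highest CPM, and AFP was at 0 in all libraries. They summed to 7.08, 5.56, 10.7 and 15.7 CPM on MEF and 5.50, 6.95, 7.80 and 6.16 CPM in feeder-free culture. Their part in the PRDM1 result was not tested.

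**Figure D1:**
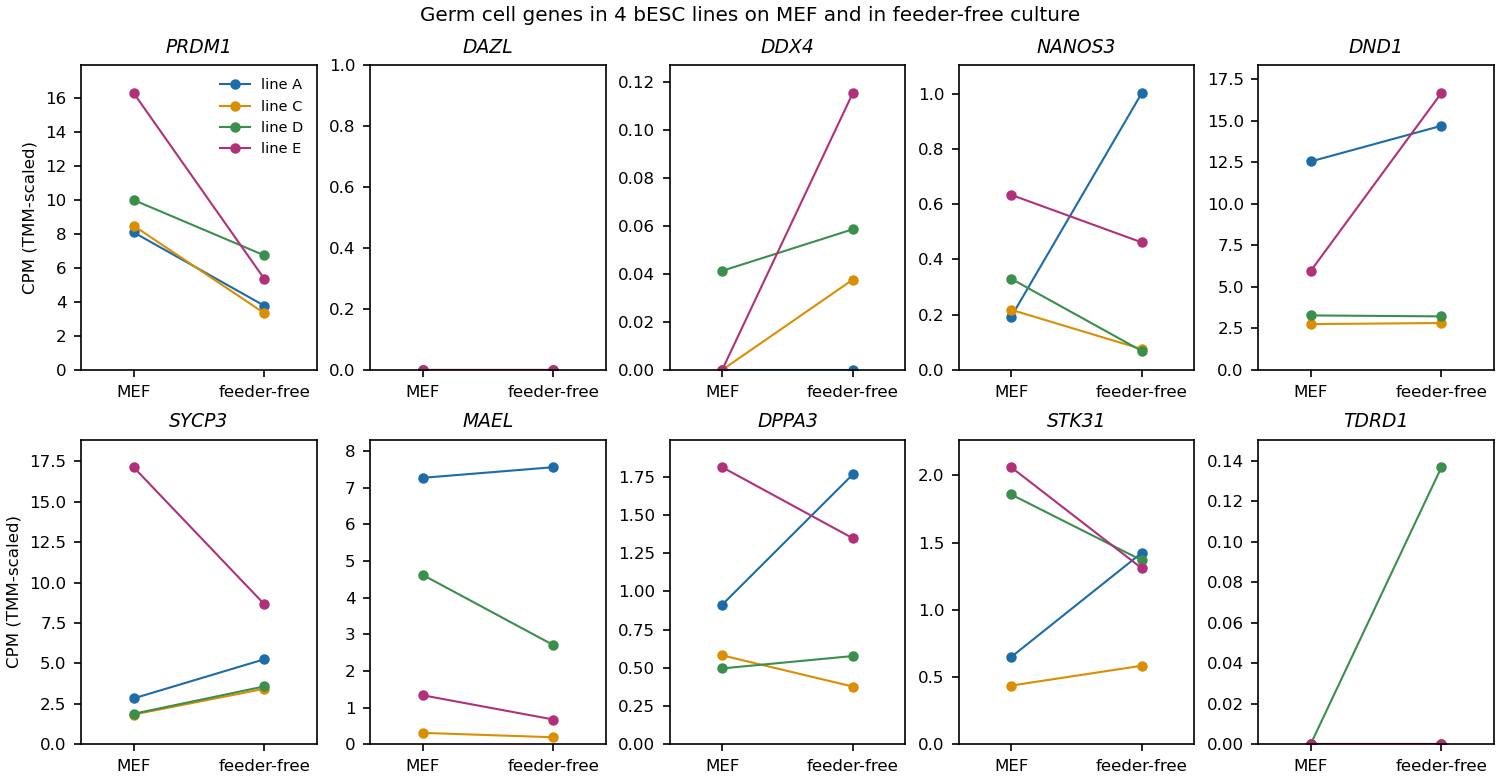
Level of each of the 10 germ cell genes in CPM (TMM-scaled, own axis from 0 for each gene) in the MEF and the feeder-free library of lines A, C, D and E, with 1 point per library and a line joining the libraries of 1 bESC line. PRDM1 slopes down in all 4 lines, DAZL lies at 0 throughout, and MAEL and DND1 keep lines A and C apart in both conditions.

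None of the 7 tested members was called between the conditions in the fit without pairing, while 1.73% of all 15744 tested genes were (272 genes, of which 114 or 0.724% were higher and 158 or 1.00% lower). That count was unstable: it was 490 with feeder-free line A left out and 0 to 6 without any other 1 library. At an unadjusted p under 0.05 the count was 1 of 7, PRDM1, beside 21.6% of all tested genes. PRDM1 was also the single member called by edgeR's likelihood ratio test, which called 5.32% of genes, and by DESeq2, which called 7.69%, and limma-voom called no member and 1.45% of genes. With the lines paired the count was 1 of 7, again PRDM1, beside 10% of all genes (1582 genes). The median log2 fold change of the 7 was -0.09 without pairing, beside 0.006 for all tested genes.

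NANOS3, DND1 and DPPA3 had no direction common to the lines. NANOS3 (chr7:11807311-11818761), a repressor of translation that keeps primordial germ cells alive, had few counts: 8, 12, 16 and 28 on MEF and 50, 4, 7 and 24 in feeder-free culture. Line A was 1.00 CPM without feeders and 0.192 CPM on MEF, and the other 3 lines were lower without feeders. The log2 fold change was 0.21 (SE 0.86, edgeR adjusted p = 0.927) without pairing and -0.41 with it (edgeR adjusted p = 0.755).

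DPPA3 (chr5:101333531-101341323) lay at 0.912, 0.581, 0.496 and 1.81 CPM on MEF and at 1.77, 0.377, 0.577 and 1.35 CPM in feeder-free culture. The groups overlapped, and 2 lines were higher and 2 lower without feeders. Its log2 fold change was 0.09 (SE 0.59, edgeR adjusted p = 0.953). DND1 (chr7:51800256-51803455), an RNA-binding protein that germ cells need to survive, had 12.6, 2.76, 3.28 and 5.96 CPM on MEF and 14.7, 2.83, 3.23 and 16.7 CPM in feeder-free culture. Lines C and D held nearly the same level in both conditions, line A was high in both, and line E was higher without feeders. The log2 fold change was 0.61 (SE 0.68, edgeR adjusted p = 0.662).

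DAZL and DDX4, markers of germ cells that have reached the gonad, and TDRD1, a scaffold of the piRNA machinery, were at or near 0. DAZL (chr1:153640071-153663068) had 0 counts in all 8 libraries, and a count of 0 allows up to 3 counts, which is 0.0293 to 0.0720 CPM depending on the library. This limit covers counting error only. DDX4 (chr20:23358254-23424672) had 2 counts over the MEF libraries and 14 over the feeder-free libraries, with no library above 6. TDRD1 (chr26:34641574-34697307) had 14 counts, all in the feeder-free library of line D, the deepest library. These 3 genes did not pass the filter on low counts, so no fold change is given.

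MAEL (chr3:1829686-1886294), which is needed to silence transposons in germ cells, had 7.27, 0.309, 4.63 and 1.34 CPM on MEF and 7.56, 0.188, 2.71 and 0.674 CPM in feeder-free culture. The order of the lines, A above D above E above C, was the same in both conditions. Its log2 fold change was -0.28 (SE 1.09, edgeR adjusted p = 0.920), and with the lines paired it was -0.57 (SE 0.28, edgeR adjusted p = 0.193), lower in 3 of 4 lines. STK31 (chr4:71959169-72044578), a kinase-like partner of the piRNA proteins, had 0.648, 0.436, 1.86 and 2.06 CPM on MEF and 1.42, 0.584, 1.37 and 1.31 CPM without feeders. The groups overlapped, and the log2 fold change was -0.09 (SE 0.54, edgeR adjusted p = 0.949).

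SYCP3 (chr5:65541079-65548189) had 2.83, 1.83, 1.88 and 17.1 CPM on MEF and 5.26, 3.43, 3.58 and 8.66 CPM in feeder-free culture. Line E was the highest in both conditions and was lower without feeders, while lines A, C and D were higher by 0.88 to 0.92 on the log2 scale. The log2 fold change was -0.18 (SE 0.73, edgeR adjusted p = 0.925) without pairing and 0.43 with it (edgeR adjusted p = 0.408), so its sign followed the fit. Without the MEF library of line E, but with its feeder-free library kept, the unpaired log2 fold change was 1.26 (edgeR adjusted p = 0.150). With both libraries of line E left out and the lines paired it was 0.92 (edgeR adjusted p = 0.0544).

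**Figure D2:**
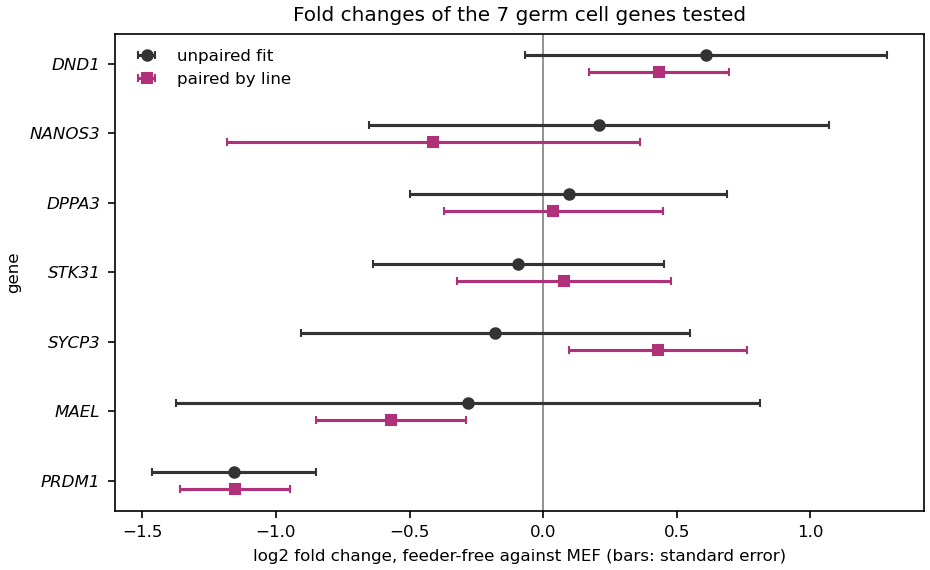
Log2 fold change of feeder-free against MEF for the 7 germ cell genes that passed the filter, with the standard error as a bar, from the fit without pairing (circles) and with the lines paired (squares). PRDM1 stands at -1.16 and -1.15, and the signs of NANOS3, SYCP3 and STK31 differ between the fits.

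More members were called between lines than between conditions, and so were more of all tested genes. Of all tested genes 1865 were called between lines, and 272 between conditions without pairing and 1582 with it. A call between lines needed no fold change, unlike a call between conditions. An F test of the line term in the paired fit, chosen after the values had been seen, called 3 of the 7 (MAEL, DND1 and SYCP3) at an adjusted p under 0.05, beside 11.8% of all tested genes. On simulated data this test gave false calls more often than its nominal rate, which applies to every call between lines below. MAEL had a mean over both conditions of 7.42 CPM in line A and 0.249 CPM in line C, which is 29.9-fold with 27 counts in line C (edgeR adjusted p = 0.000611). DND1 was 4.88-fold higher in line A, at 13.6 CPM, than in line C, at 2.79 CPM (edgeR adjusted p = 0.00732). Both calls held in 15 of 15 alternatives, which changed the scaling, the filter or the tool or left out a library.

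SYCP3 was 4.90-fold higher in line E, at 12.9 CPM, than in line C, at 2.63 CPM (edgeR adjusted p = 0.0162). This call was lost without the MEF library of line E (edgeR adjusted p = 0.0855) and without that of line C (edgeR adjusted p = 0.0539). PRDM1, DPPA3, STK31 and NANOS3 had edgeR adjusted p of 0.141, 0.119, 0.181 and 0.353 in the same test. DPPA3 was called between lines by edgeR's likelihood ratio test (adjusted p = 0.0183) and by that of DESeq2 (adjusted p = 0.0495). The 10 members summed to 32.5, 14.6, 22.5 and 45.2 CPM on MEF and 35.5, 10.8, 18.5 and 34.6 CPM in feeder-free culture, in lines A, C, D and E. Lines A and E were thus above lines C and D in both conditions.

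Some reads of 3 members may belong to a neighbouring gene, because the annotated spans overlap and the strand setting of the counting was not given. DND1 overlapped WDR55 by 148 bases, and WDR55 lay between 32.6 and 59.3 CPM with no likeness to DND1 across the 8 libraries (Pearson r = -0.01). SYCP3 overlapped CHPT1 by 437 bases. CHPT1 was highest in line A, not in line E, with 11.9 CPM on MEF and 15.0 CPM without feeders in line E (r with SYCP3 = 0.35). STK31 overlapped FAM221A by 8445 bases, and the log2 CPM of these genes had r = 0.74. The part of shared reads was not tested.

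For each tested member, the other genes whose log2 CPM were most alike across the 8 libraries were listed as a description, from 15743 genes compared, with points that share libraries and lines. The first for DND1 were PGGHG (r = 0.98) and STRA8 (r = 0.98), the latter a gene that starts meiosis. For SYCP3 they were LOC101905992 (r = 0.99) and HPRT1 (r = 0.98), and for MAEL RAVER2 (r = 0.96) and NUDT17 (r = 0.96). For PRDM1 they were ELL2, a transcription elongation factor, and SMIM13, with r = 0.97 and 0.96. NANOS3 was most like the uncharacterised genes LOC101902665 and LOC101905499, DPPA3 was most like TTC32 and LOC132342188, and STK31 was most like LOC107132092 and RRAD, all with r of 0.96 to 0.98. Among the members, the highest r were between NANOS3 and DPPA3 (0.84), DND1 and DPPA3 (0.79), and SYCP3 and DPPA3 (0.78).

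The wider germ cell programme was read from 5 further lists written from textbook knowledge, with 131 symbols, of which 123 were in the table and 60 passed the filter. Of these 60, 0 were called between the conditions without pairing by edgeR's quasi-likelihood test, beside 1.73% of all tested genes, and 12 had an unadjusted p under 0.05, 6 higher and 6 lower, beside 21.6% of all tested genes. DESeq2 called 3 higher and 1 lower, beside 7.69% of all tested genes. With the lines paired, 4 rose and 3 fell, beside 5.52% and 4.53% of all tested genes. The 4 include DMRT1, which passed the filter through the feeder-free libraries, where it was higher. The line test called 16 of the 60, which is 26.7% beside 11.8% of all tested genes, and 9 of the 16 were meiosis genes. TSPYL5, MEIOSIN and STRA8 are among the 16 and passed the filter through lines A and E alone, so this share is not read as a result. The trophoblast and fibroblast markers are given below.

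Among 20 genes of primordial germ cell specification, 15 were tested and 2 rose with the lines paired, beside 5.52% of all tested genes. ITGB3, an integrin on the surface of primordial germ cells and of other cells, had 2.45, 3.41, 4.63 and 4.30 CPM on MEF and 6.46, 15.2, 25.5 and 8.2 CPM in feeder-free culture. All feeder-free libraries lay above all MEF libraries, as in 6.21% of all tested genes. Its log2 fold change was 1.90 (edgeR adjusted p = 0.0538) without pairing and 1.75 with it (edgeR adjusted p = 0.00358), and it was called without each line in turn. EOMES, a T-box factor of early mesoderm and germ cell competence, went from 3.14 ± 2.60 to 7.75 ± 1.58 CPM (SD, n = 4 each; paired log2 fold change 1.61, edgeR adjusted p = 0.0307), and lost its call without line A or line C, at 0.0835 and 0.0553.

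Other specification genes did not pass in the paired fit with TMM factors, while 3 genes of the list were called higher by DESeq2 without pairing and in the paired fits with RLE size factors or library size alone. PRDM14, a repressor that acts beside PRDM1, lay at 86.6 ± 22.9 CPM on MEF and 112 ± 27.9 CPM without feeders (SD, n = 4 each; paired log2 fold change 0.37, edgeR adjusted p = 0.0481, under the fold threshold), and it was called between lines, highest in line C by the mean of both conditions (edgeR adjusted p = 0.0247). NANOS1, an RNA-binding relative of NANOS3, was also called between lines, highest in line E (edgeR adjusted p = 0.0362). UTF1, a chromatin factor of pluripotent and germ cells, was higher in 4 of 4 lines, with a paired log2 fold change of 0.62 (edgeR adjusted p = 0.0519) and 0.67 without pairing (edgeR adjusted p = 0.11). Its feeder-free libraries all lay above its MEF libraries, as in 6.21% of all tested genes. SOX17 and TFAP2C were looked at outside the rule for named genes. SOX17, which specifies germ cells in several mammals, had 0, 12, 6 and 0 counts on MEF and 0, 4, 11 and 0 without feeders. TFAP2C, a factor that acts with PRDM1, did not exceed 0.586 CPM in any library.

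Of 24 piRNA genes, 11 were tested and 1, PIWIL2, rose with the lines paired, beside 5.52% of all tested genes. PIWIL2, an Argonaute protein that binds piRNAs, went from 0.590 ± 0.500 to 1.28 ± 0.700 CPM (SD, n = 4 each; paired log2 fold change 1.30, edgeR adjusted p = 0.048), higher in 4 of 4 lines. It lost its call when any 1 line was left out, with edgeR adjusted p of 0.0835 to 0.148. TDRKH, which binds PIWI proteins at the mitochondrial surface, lay at 38.8 ± 3.73 and 38.5 ± 6.49 CPM (SD, n = 4 each). DDX25, an RNA helicase of germ cells, had 109 CPM on MEF in line E and 13.3 to 21.3 CPM in the other MEF libraries, and 37.5 CPM without feeders in line E (edgeR adjusted p of the line test = 0.00253, and 0.0102 without the MEF library of line E). PIWIL4 and TDRD12 were also called between lines, the first lowest and the second highest in line E by the mean of both conditions. Without the MEF library of line E, PIWIL4 lost its call (edgeR adjusted p = 0.0669) and TDRD12 kept it (0.0277).

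Several meiosis genes were highest in line E. Of the 39 listed 20 were tested, and in 9 of these line E was the highest line in both conditions, which is 45%, beside 6.15% of all tested genes (11.7%, 6.21% and 15.2% for lines A, C and D). These 9 include MEIOSIN, which passed the filter only through lines A and E, so the filter fixed part of this share. The line test called 9 of the 20, or 45%, beside 11.8% of all tested genes. Line E was the highest in both conditions in 7 of the 9 called: MEIOSIN, MEIOC, STAG3, REC8, DMC1, ANKRD31 and ZCWPW1. Over all genes this held for 184 of the 1865 called. The others were STRA8, highest in line A, and MSH5, highest in line C. MEIOSIN and STRA8 passed the filter through lines A and E alone, with at most 0.163 CPM in lines C and D. Their calls between lines are therefore not read as results. The 9 called include both and the 7 include MEIOSIN, so neither share is read as a result. Without the MEF library of line E the test called 6 meiosis genes, again with MEIOSIN and STRA8. REC8, DMC1 and ZCWPW1 were among them, but not MEIOC, STAG3 or ANKRD31. Among the feeder-free libraries alone, line E was the highest in 10 of 20 meiosis genes, MEIOSIN among them, and in 18.2% of all tested genes. The list was taken up in this detail after line E had been seen to stand apart for SYCP3.

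MEIOSIN, which acts with STRA8 to start meiosis, had 0.360, 0.127, 0.0826 and 15.7 CPM on MEF and 0.261, 0.132, 0.0782 and 2.67 CPM in feeder-free culture, in lines A, C, D and E. Its call between lines is not read as a result, as it passed the filter through lines A and E alone. REC8, a meiotic cohesin, had 7.20, 0.545, 1.80 and 24.4 CPM on MEF and 4.82, 0.961, 2.15 and 10.8 CPM without feeders. The edgeR adjusted p of the line test for REC8 was 0.00133, and 0.00616 without the MEF library of line E. Line E was highest in both conditions for each, and it was higher on MEF than without feeders. DMC1, the recombinase of meiotic strand exchange, had 15.3 CPM on MEF and 3.00 CPM without feeders in line E, and 0.0565 to 1.08 CPM in the other libraries (0.00292 and 0.0426 in the same tests). STAG3, another meiotic cohesin, had 40.7 and 10.3 CPM in line E and 4.46 to 6.34 CPM in the other libraries (0.0165 and 0.12, so its call was lost without the MEF library).

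SMC1B, HORMAD2 and SYCE3, chosen after their values were seen, did not pass the filter and were found mainly or only in line E. SMC1B, a further cohesin subunit, had 0, 0, 2 and 584 counts on MEF and 2, 6, 4 and 145 in feeder-free culture. HORMAD2 and SYCE3, proteins of the meiotic chromosome axes and of the complex that joins them, had 74 and 56 counts on MEF and 12 and 43 without feeders in line E, and 0 in the other 6 libraries. SYCP1, which joins the axes of paired chromosomes, had at most 4 counts in any library and 0 in line E, and HORMAD1, SPO11, PRDM9, MEI4 and SYCE1 had at most 4 counts in any library.

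The size of the difference between the conditions over the meiosis list leaned on line E. Over all libraries, 16 of 20 genes had a negative log2 fold change with a median of -0.76, beside 49.4% of all genes and a median of 0.006. With the lines paired, 16 of 20 were negative with a median of -0.48. Without the MEF library of line E, 7 of 20 were negative and the median was 0.18. With both libraries of line E left out, 13 of 18 were negative without pairing (median -0.20) and 12 of 18 with it (median -0.10), beside 46.7% and 47.7% of all genes. Within lines A, C and D, 13 of 20 were lower without feeders in each, with medians of -0.31, -0.22 and -0.12, and in line E 17 of 20, with a median of -1.19.

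Paired by line, 2 of the 20 meiosis genes tested fell, TEX11 and MEIOB, beside 4.53% of all tested genes. TEX11, which acts in meiotic recombination, went from 34.4 ± 24.1 to 15.9 ± 3.15 CPM (SD, n = 4 each; paired log2 fold change -0.92, edgeR adjusted p = 0.042), and its call was lost without line D (0.116) or line E (0.0858). MEIOB, a single-strand DNA binding protein of meiosis, went from 0.734 ± 0.708 to 0.0983 ± 0.102 CPM (SD, n = 4 each; paired log2 fold change -2.88, edgeR adjusted p = 0.0278). It was not called in the 3 fits without line C, D or E (0.0544 to 0.11) and did not pass the filter without line A. YTHDC2, an RNA-binding protein of meiotic entry, stood at 15.7 ± 1.85 and 16.6 ± 2.99 CPM (SD, n = 4 each).

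**Figure D3:**
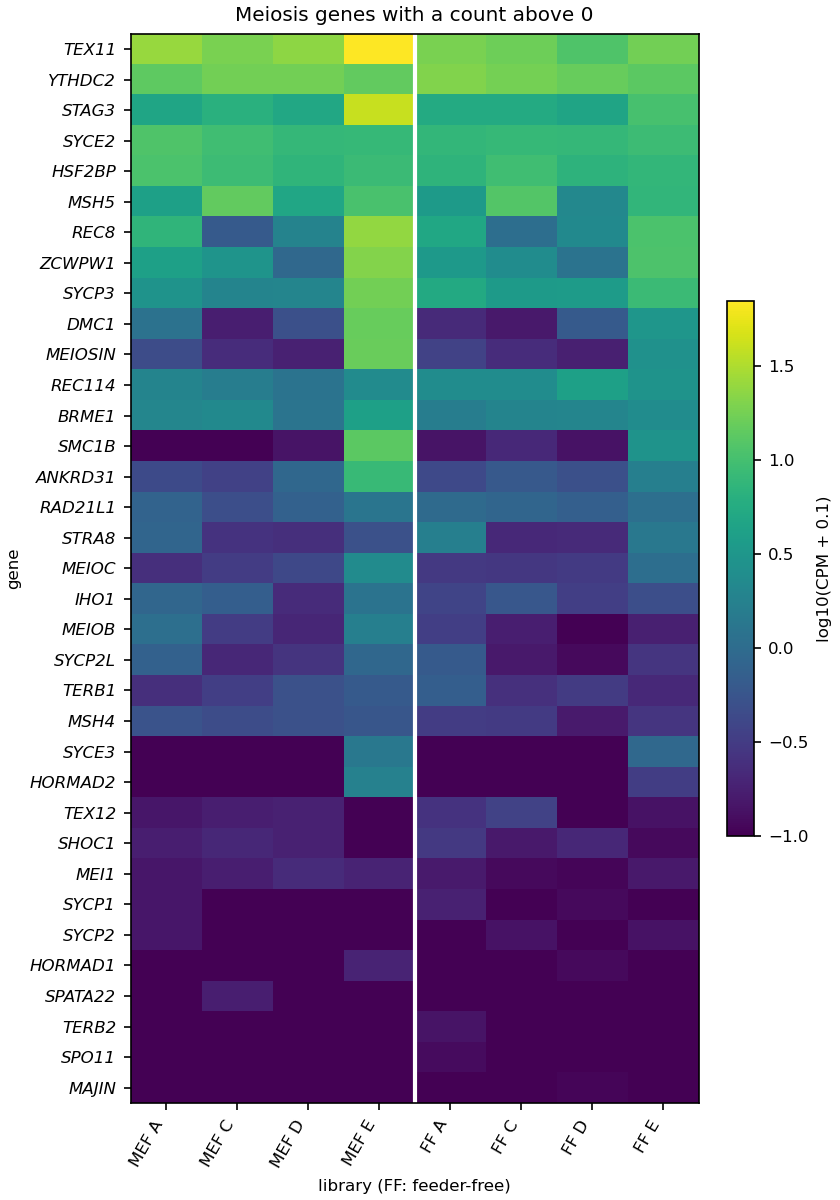
Level of each meiosis gene with a count above 0, as log10(CPM + 0.1) in colour, in the 4 MEF libraries (left) and the 4 feeder-free libraries (right) of lines A, C, D and E. The column of MEF line E is the brightest for MEIOSIN, DMC1, SMC1B and STAG3, the feeder-free column of line E follows, and SYCP1 and HORMAD1 are dark throughout.

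Of 25 gonocyte and spermatogonial genes 8 were tested, and of 23 oocyte genes 6. Of the 8, 7 had a negative log2 fold change (median -0.41), beside 49.4% of all tested genes (median 0.006). Among them was ZBTB16, a factor of spermatogonial stem cells named after its values were seen, at -0.73 (edgeR adjusted p = 0.141). Its groups did not overlap, and 8.36% of all tested genes had every feeder-free library below every MEF library. DMRT1, the only positive gene and a transcription factor of the gonad, rose with the lines paired, from 0.143 ± 0.131 to 0.545 ± 0.0919 CPM (SD, n = 4 each; log2 fold change 2.13, edgeR adjusted p = 0.0434), and its call was lost without line C, D or E (0.105 to 0.174). DMRT1 passed the filter through the feeder-free libraries, where it was higher, and would not have passed on its MEF libraries alone. Its call is therefore not read as a result. GFRA1, a receptor of spermatogonial stem cells, lay at 51.9 ± 9.67 and 37.6 ± 5.05 CPM (paired edgeR adjusted p = 0.0289, under the fold threshold), and ID4 lay at 11.8 ± 0.747 and 11.7 ± 2.76 CPM (SD, n = 4 each). PADI6, an enzyme of the egg's cytoplasm, had 121, 87.1, 40.8 and 62.5 CPM on MEF and 60.3, 37.0, 13.4 and 37.3 CPM without feeders. PADI6 was also the 1 oocyte gene called between lines, with line A the highest in both conditions. It was lower in 4 of 4 lines, and while the groups overlapped it fell with the lines paired, with a log2 fold change of -1.15 (edgeR adjusted p = 0.00206), which held without each line. ZAR1L, an RNA-binding gene of the oocyte, had a log2 fold change of -0.10 (edgeR adjusted p = 0.90). TSPYL5 had counts in lines A and E alone and passed the filter through those lines, so its call between lines is not read as a result.

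Genes that keep the germ cell programme silent in other cells, with the enzymes that write and remove DNA methylation, formed a list of 36, of which 35 were tested. SETDB1 fell, and by edgeR's quasi-likelihood test no other gene of the list was called without pairing, beside 1.00% of all genes called lower. The count of genes called lower was 2 by the likelihood ratio test, 2 without the fold threshold and 4 with feeder-free line A left out. SETDB1, a histone H3K9 methyltransferase, had 74.0, 73.4, 71.8 and 67.0 CPM on MEF and 47.2, 52.8, 45.1 and 44.9 CPM in feeder-free culture. All feeder-free libraries lay below all MEF libraries, as in 8.36% of all tested genes. Its log2 fold change was -0.59 (SE 0.10, edgeR adjusted p = 0.0331), close to the fold threshold of 0.585. The call was lost with either other scaling, with either other filter and in 7 of 8 fits that left out a library, with edgeR adjusted p up to 0.116.

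With the lines paired, SETDB1 and TET2 fell and WDR5 and YAF2 rose, which is 4 of 35 tested beside 10% of all genes. With RLE size factors or library size alone in the paired fit, 1 gene of the list fell. TET2, which oxidises methylated DNA, went from 35.9 ± 7.09 to 18.6 ± 5.86 CPM (SD, n = 4 each; paired log2 fold change -0.99, edgeR adjusted p = 0.0085), called without each line. WDR5, a part of histone methyltransferase complexes, had a paired log2 fold change of 0.66 (edgeR adjusted p = 0.0244) and YAF2, a Polycomb partner, of 1.09 (0.0417). SETDB1 lost its call without line A (log2 fold change -0.575, adjusted p 0.0215, under the fold threshold) or line D (0.0571). WDR5 lost its call without line D (0.0764) or line E (log2 fold change 0.47, adjusted p 0.0371, under the fold threshold), and YAF2 without any 1 line. TRIM28, a corepressor, had a log2 fold change of -0.20 (edgeR adjusted p = 0.441).

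The line test called 4 of the 35 silencing genes, or 11.4%, beside the 11.8% of all genes: DNMT3B, MGA, DNMT1 and YAF2. DNMT3B, a DNA methyltransferase, had 594, 1097, 1716 and 601 CPM on MEF and 748, 976, 1501 and 968 CPM without feeders, in lines A, C, D and E (edgeR adjusted p = 0.0143). MGA, the DNA-binding subunit of a Polycomb complex that represses germ cell genes, had 79.9, 95.0, 117 and 49.8 CPM on MEF and 79.0, 96.1, 90.6 and 49.7 CPM without feeders (edgeR adjusted p = 0.0112). Line E was the lowest for MGA in both conditions, and it was the highest for SYCP3. A relation between them was not tested with 4 lines.

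**Figure D4:**
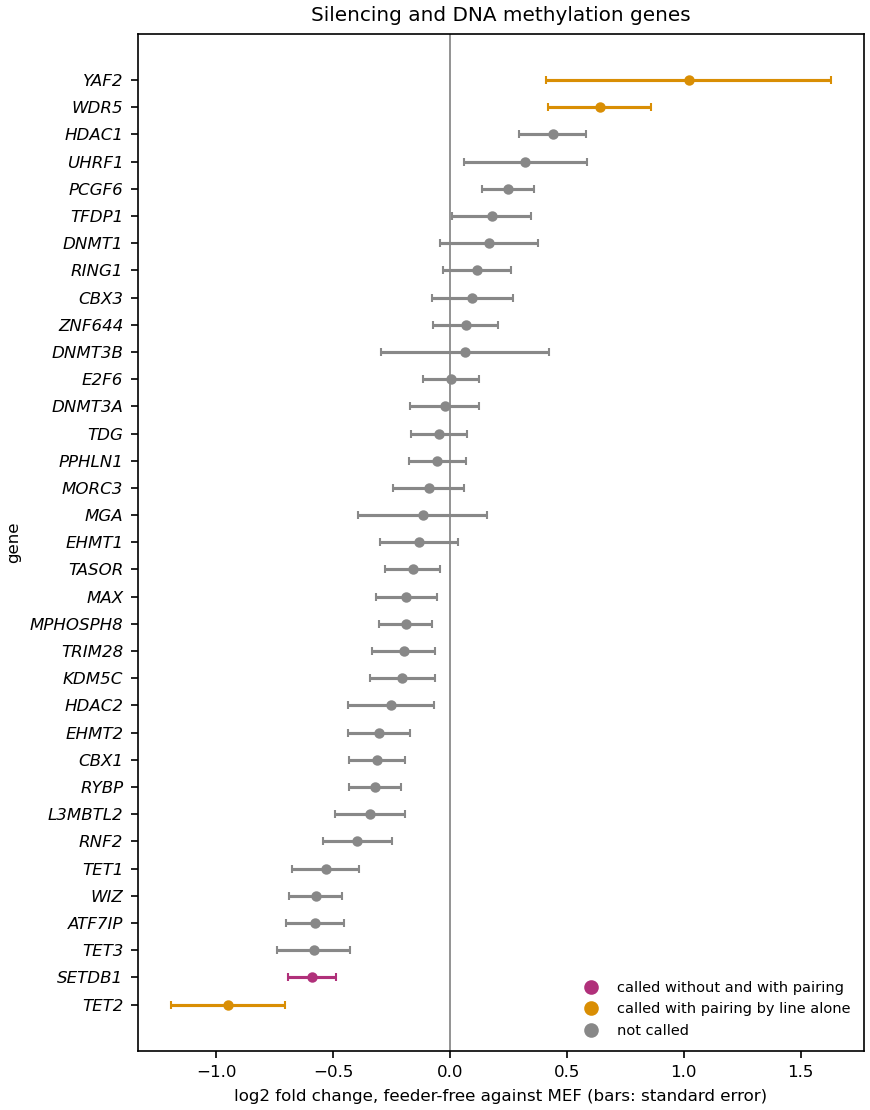
Log2 fold change of feeder-free against MEF, with its standard error, for the 35 silencing and DNA methylation genes tested, from the fit without pairing, with colour for the calls without and with pairing. SETDB1 is at -0.59 with a narrow bar, TET2 is the lowest at -0.95, and most genes lie within 0.5 of 0.

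Markers of other cell types were counted in the same way, and with the lines paired 5.52% of all tested genes rose and 4.53% fell. The 13 trophoblast markers, with KRT8 the gene of highest CPM and CDX2 at 0 in all libraries, summed to 735, 980, 1263 and 942 CPM on MEF and 808, 2387, 3100 and 1427 CPM in feeder-free culture. Of 9 tested, 1 rose without pairing (PTGS2), beside 0.724% of all tested genes. With the lines paired, 5 rose (TEAD4, KRT7, PTGS2, KRT8 and KRT18) and 1 fell (GATA2). The 20 fibroblast markers, with VIM and COL1A1 the genes of highest CPM, summed to 1484, 1299, 1100 and 1179 CPM on MEF and 763, 1815, 2763 and 1133 CPM without feeders. Of 17 tested, 3 rose with the lines paired (COL3A1, POSTN and ACTA2) and 2 fell (COL1A2 and PRRX1). The sums rose most in lines C and D, while PRDM1 was lowest relative to MEF in lines E and C. The part of these cells in the germ cell results was not tested.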

How the data were processed

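Per the labels and the study's methods, libraries were made from total RNA with NEBNext Ultra II and read as pairs of 150 bases. The authors trimmed reads with Trimmomatic, aligned them to ARS-UCD2.0 with STAR, removed optical duplicates with Picard and alignments of mapping quality under 30 with samtools, and deposited raw counts per gene from featureCounts (Subread 1.6.2 in the submitters' processing notes). Reads from a pure MEF sample that aligned to the bovine genome were removed from the counts on MEF, per the methods. Whether the deposited counts are from before or after that step was not known, so counts on MEF may have been made differently from those without feeders. That sample was not analysed here.

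Of 32640 genes, 3 had no values and 15744 passed edgeR's filterByExpr. Counts were tested with edgeR 4.0.16 in R 4.3.3 (TMM, glmQLFit and glmQLFTest, Benjamini-Hochberg adjustment over all tested genes, calls at 1.5-fold or more with an adjusted p under 0.05). The unpaired fit had the condition alone, as no line term is stated in the study's methods. The paired fit added the line. The line letters pair the libraries, since each line was cultured in both conditions, and deviations from the group means had r of 0.421 to 0.664 within a line and -0.523 to 0.249 between lines. Adjusted p-values given for the line are from an F test with 3 degrees of freedom. Alternatives used DESeq2 1.42.0 and limma 3.58.1, other scalings and filters, and left-out libraries. Similarity between genes used log2 CPM with a prior count of 2. The fits were tested on simulated data, in which false calls of the line test were more frequent than its nominal rate.

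Libraries were grouped by their labels. P-values of the unpaired fit set the difference between conditions against the spread of the lines within a condition. Those of the paired fit and of the line test use the spread left after line and condition, with 1 library per line and condition. Named genes were all members, every listed gene called in either fit, the 2 of highest CPM in each list and, for a list with no call, the gene of smallest p. Genes of the germ cell and silencing lists called between lines, and those said to be chosen later or outside the rule, were added, and defining markers at or near 0 and NANOG were named for their role. The members and lists were chosen with earlier results of these data known. Of 228 list symbols 218 were in the table. Gene positions are RefSeq's (ARS-UCD2.0), matched for 30268 genes. No 2 libraries of 1 condition were alike within sampling noise.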

Additional observations from a re-analysis of the deposited data

Results flagged for a closer look

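Of 28 groups of 4 values examined, 3 held 1 library far from the other 3 by Dixon's test, where chance gives about 1.4. The log2 CPM of STK31 in the feeder-free library of line C was -0.69, while the other feeder-free libraries lay at 0.43 to 0.55. The log2 of the summed CPM of the piRNA genes was 7.53 in the MEF library of line E and 6.83 to 6.90 in its group, and DDX25 gave 109 CPM of that library's sum. The log2 total count of the feeder-free library of line D was 26.61, beside 25.57 to 25.61 in the other feeder-free libraries. TDRD1 was counted in that deeper library alone.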

How the results depend on the processing

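With the line as a replicate block, calls over all genes went from 114 higher and 158 lower to 869 and 713, members called lower from 0 to 1, and genes of the 5 further lists from 0 and 0 to 4 higher and 3 lower. The block with RLE size factors gave 910 and 676, 1, and 5 and 3, and the block with library size alone gave 1013 and 595, 1, and 5 and 3. Without the block, library size alone left 91 lower, no filter gave 73 higher and 97 lower, and a minimum of 10 counts gave 199 higher and 1 higher in the lists. The likelihood ratio test gave 448 and 389, 1 member and 2 higher in the lists, and DESeq2 gave 695 and 516, 1 member, and 3 higher and 1 lower. Over fits with a library or line left out, calls ran from 0 to 918 higher and 0 to 733 lower, members from 0 to 0 higher and 0 to 1 lower, and the lists from 0 to 4 higher and 0 to 3 lower. Without feeder-free line A 490 genes were called, and without any other 1 library 0 to 6. The share of higher calls thus moved with the tool and the block.

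PRDM1 kept its sign in 11 alternatives and was called in 5, with log2 fold changes from -1.16 to -1.09. Signs that turned were NANOS3 at -0.63, SYCP3 at 0.42, DPPA3 at -0.020 and STK31 at 0.17 under limma-voom. They were NANOS3 at -0.41, SYCP3 at 0.43 and STK31 at 0.078 with the block, -0.40, 0.44 and 0.090 with the block and RLE, and -0.37, 0.47 and 0.12 with the block and library size. With a library or line left out, log2 fold changes ran from -1.32 to 0.67 for NANOS3, -0.31 to 0.61 for DPPA3, -1.49 to 0.41 for MAEL, -0.38 to 0.35 for STK31, -0.54 to 1.26 for SYCP3, 0.095 to 1.23 for DND1 and -1.37 to -0.88 for PRDM1.

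In the line test, meiosis genes called went from 9 to 14 with no filter and 5 with at least 10 counts, and all genes from 1865 to 3379 with no filter, 3704 by the likelihood ratio test and 3888 by DESeq2. Members called between lines went from 3 to 4 by the likelihood ratio test and by DESeq2. Leaving out a library gave 2 to 3 members, 6 to 10 meiosis genes and 900 to 2944 genes. The causes of these changes were not tested. A level per gene length and promoter motifs were not run. Below about 10 counts, as for NANOS3 in the feeder-free libraries of lines C and D, depth limits what can be seen.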
